A study of Homo sapiens with 18 samples.

Results

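The genes described here are 10 transporters, chaperones and regulators of copper and zinc: SLC30A1, SLC30A10, SLC39A10, SLC39A14, MTF1, SLC31A1, SLC31A2, ATOX1, ATP7A and ATP7B. They were chosen by name, and all of their probes were taken from the arrays through the RefSeq accession of each probe or its gene symbol. This gave 15 probes for the 10 genes out of 42327 usable probes, and all 15 were among the 29894 probes that passed the test for signal. ATP7A had 4 probes, SLC31A1 and SLC39A14 had 2 each, and the other genes had 1 each. EpCAM+ cells of the human hepatocellular carcinoma (HCC) lines Huh1 and Huh7, isolated by sorting, were compared with 48 h of disulfiram (DSF, 0.1 µM), 48 h of 5-fluorouracil (5-FU, 1 µM) or neither, and their RNA was hybridized to one-color arrays. Each of the 6 groups held 3 arrays from separate experiments, 18 in all. The study's methods list copper chloride with DSF and do not state whether control cells were given it, so DSF and added copper cannot be told apart. Huh1 and Huh7 are single established lines, and the cells were a sorted fraction of each.

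Copper and zinc are held within narrow limits in cells. Zinc leaves the cytosol through SLC30 (ZnT) proteins and enters it through SLC39 (ZIP) proteins, and the transcription factor MTF1 binds metal response elements and switches on metallothionein genes and SLC30A1 when free zinc rises. Copper enters through SLC31A1 (CTR1), is carried by the chaperone ATOX1 to the ATPases ATP7A and ATP7B, and in the liver leaves by way of ATP7B into bile. Disulfiram gives rise to a dithiocarbamate that chelates copper, while 5-FU is an antimetabolite of nucleotide synthesis.

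All levels below are the log2 spot intensity of a probe minus the log2 75th percentile of its array, so that 0 is the 75th percentile of all probes on that array. A change is a difference of such levels, given with its standard error from limma, and it was called when the Benjamini-Hochberg adjusted p over all tested probes lay under 0.05. Where a gene had several probes its brightest one stands for it, and levels are compared between groups, never between genes. On the arrays of a group the bulk of the probes can itself shift, and 6 spike-in probes give a second scale. Against these the 75th percentile of the 5-FU arrays exceeded that of the controls (log2 difference 0.83 for Huh1, 0.99 for Huh7), and under spike-in scaling the median change of all probes after 5-FU was 0.79 and 0.94. Changes after 5-FU are therefore relative to the bulk of the probes, and where the sign differs on the spike-in scale this is stated. After DSF the same shift was 0.13 in Huh1 and -0.17 in Huh7. The arrays lay on 3 slides, and DSF arrays were spread over them: Huh1 DSF replicate 3 was on the slide of the Huh7 controls, and Huh7 DSF replicates 2 and 3 made up slide 3, which was scanned on a different day. All 10 liver cancer markers (AFP, ALB, APOA1, APOB, TTR, SERPINA1, EPCAM, KRT8, KRT18 and GPC3) were well above background on all 18 arrays, and so were 5 of the 9 markers of other cell types on the array, PTPRC, PECAM1, DES and CD68 among them. The part of other cells in the results was not tested, and in bulk samples fewer cells of a type and less RNA per cell cannot be told apart.

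After DSF, 9 of the 10 genes were called in Huh1, 4 higher and 5 lower, where 44.2% of all tested probes were called (23.9% higher, 20.3% lower). In Huh7, 7 of the 10 were called, 2 higher and 5 lower, beside 46.7% of all tested probes (27.3% higher, 19.4% lower). The tested probes include dim ones, here and in the shares below, while all 10 genes were well above background on every array. Of the 22427 probes well above background on all arrays, 11204 were called in Huh1 and 11932 in Huh7. With each gene as the mean of its tested probes, 8765 and 8725 of 15849 genes were called. On the median scale the Huh1 split was 1 higher and 5 lower, where 14385 of the 29894 tested probes were called, 4750 of them higher. On the spike-in scale it was 4 and 4 in Huh1, beside 23.7% of all tested probes higher and 8.09% lower. The Huh7 split on the spike-in scale was 1 and 5, beside 10.8% and 20.5%. SLC30A1 and MTF1 rose in both lines, and SLC30A10, SLC39A10, ATOX1 and ATP7B fell in both lines. Over all tested probes 9.92% were called higher in both lines and 7.62% lower in both. The median change of the 10 genes was -0.27 in Huh1 and -0.16 in Huh7, beside 0.00 and 0.08 over all tested probes. The DSF arrays lay wholly outside the control arrays for 8 genes in Huh1 and 9 in Huh7, and the same held for 59.1% and 60.5% of all tested probes.

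After 5-FU the median change of the 10 genes was -0.11 in Huh1 and -0.06 in Huh7, beside -0.03 and -0.05 over all tested probes. In Huh1, 7 of the 10 genes were called, 3 higher and 4 lower, beside 48.2% of all tested probes (22.2% higher, 26.0% lower). In Huh7 8 were called, with 4 of them higher and 4 lower, beside 57.1% (27.3% higher, 29.7% lower). Of the 22427 probes well above background on all arrays, 12391 were called in Huh1 and 14459 in Huh7. As means of their tested probes, 8929 and 10183 of 15849 genes were called. On the spike-in scale these splits were 8 higher and 0 lower, and 9 higher and 0 lower, where 74.7% of all tested probes in Huh1 and 76.8% in Huh7 were called higher and 1.23% and 3.46% lower. SLC30A1 and SLC30A10 rose in both lines on either scale, which 13.2% of all tested probes did on the 75th percentile scale. ATOX1 and MTF1 fell in both lines, as 15.9% of all tested probes did, and both genes were called higher in both lines on the spike-in scale. Set directly against 5-FU, DSF gave 3 genes higher and 5 lower in each line, beside 49.2% of all tested probes called in Huh1 (28.7% higher, 20.6% lower) and 60.5% in Huh7 (35.6% higher, 25.0% lower), and on the spike-in scale 7 genes lower and 0 higher for Huh1 (62.6% and 4.62% of all tested probes), with 9 lower and 1 higher for Huh7 (80.9% and 2.76%).

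**Figure D1:**
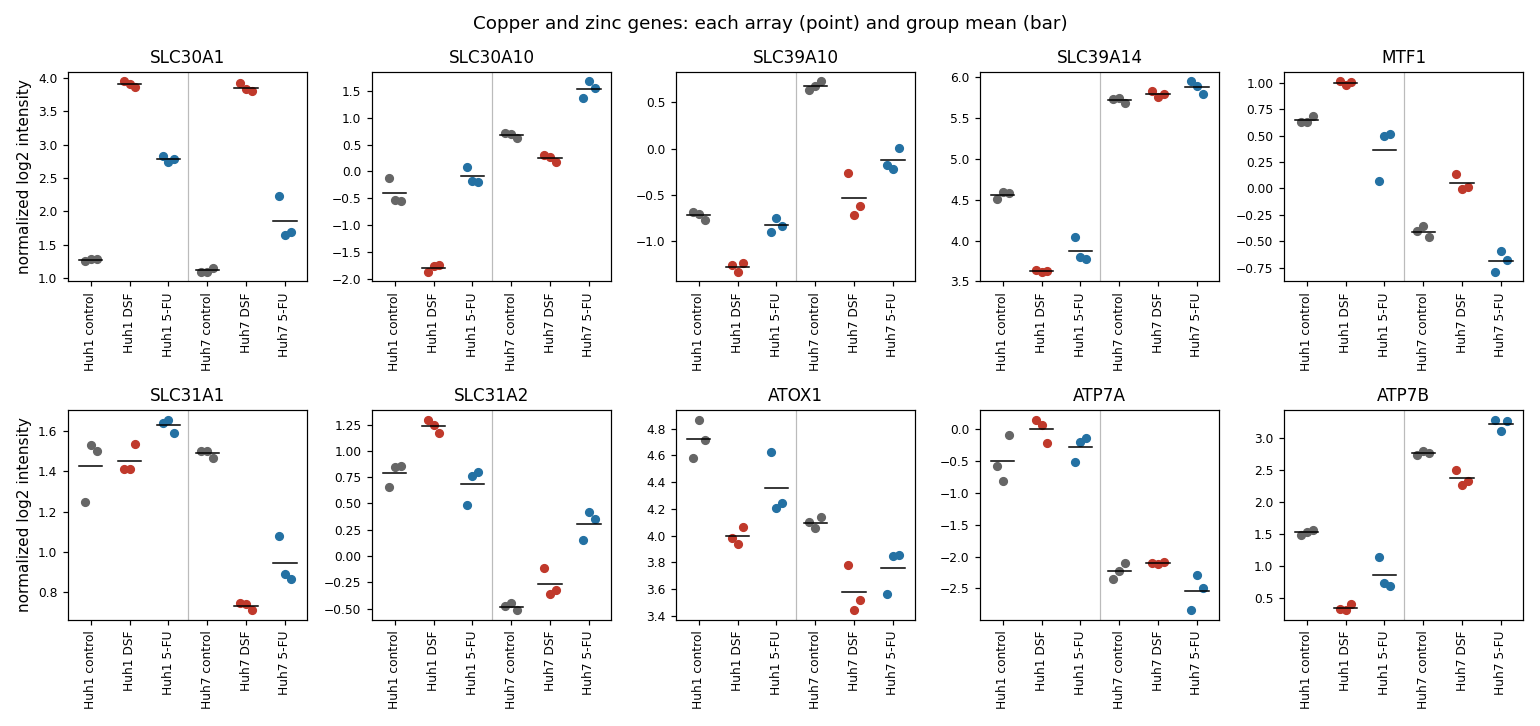
Level of each of the 10 genes on every array, as normalized log2 intensity (brightest probe of the gene), with 1 panel per gene, 1 point per array and a bar at the mean of 3 arrays. Gray is control, red DSF and blue 5-FU, and a vertical line parts Huh1 from Huh7. SLC30A1 lies at 3.80 to 3.95 on all 6 DSF arrays and at 1.09 to 1.28 on all 6 control arrays, and ATP7B and SLC39A14 lie higher in Huh7 than in Huh1 in each of the 3 treatments.

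SLC30A1 rose with both drugs in both lines. SLC30A1 (ZnT1, the zinc exporter of the plasma membrane, on chromosome 1) read 1.25, 1.28 and 1.28 on the Huh1 control arrays, 3.95, 3.90 and 3.86 with DSF, and 2.83, 2.74 and 2.78 with 5-FU. The Huh7 arrays gave 1.09, 1.09 and 1.15 in control, 3.92, 3.83 and 3.80 with DSF, and 2.23, 1.64 and 1.69 with 5-FU. DSF arrays were the highest and control arrays the lowest in both lines, without overlap among the 3 treatments, and replicate 1 stood above the other 5-FU arrays of Huh7. The rise with DSF was 2.64 ± 0.11 in Huh1, or 6.21-fold (limma adjusted p = 6.23e-10), and 2.74 ± 0.11 in Huh7, or 6.67-fold (limma adjusted p = 5.86e-10). The DSF effects in the lines differed by 0.10 (95% interval -0.24 to 0.45). Within slide 1 the Huh1 rise was 2.66 and within slide 2 the Huh7 rise was 2.81, and over all alternatives run the rises lay between 2.46 and 2.77 in Huh1 and between 2.56 and 2.81 in Huh7. With 5-FU the gene rose by 1.52 ± 0.11 in Huh1 (limma adjusted p = 2.09e-07) and by 0.74 ± 0.11 in Huh7 (adjusted p = 6.51e-05), and by 2.34 and 1.73 on the spike-in scale. The 5-FU effect was smaller in Huh7 by 0.78 (limma adjusted p of the difference = 0.00182), a call not made on the spike-in scale (-0.62, adjusted p = 0.111). DSF exceeded 5-FU by 1.12 in Huh1 and 2.00 in Huh7, and by 0.43 (adjusted p = 0.0566) and 0.84 on the spike-in scale.

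The promoter of SLC30A1 is shown because MTF1 acts through the metal response element, whose core was searched as TGCACNC or TGCGCNC on both strands. The sequence is the 250 bases before the RefSeq transcription start in build GRCh38.p14, chr1:211579162-211579411, minus strand, printed 5′ to 3′ with the core match in capitals. Below it stand 2 promoters for contrast: ATOX1 (chr5:151758632-151758881, minus strand), which holds the core but fell after DSF, and MTF1 itself (chr1:37859593-37859842, minus strand), which rose after DSF and holds no match.
SLC30A1: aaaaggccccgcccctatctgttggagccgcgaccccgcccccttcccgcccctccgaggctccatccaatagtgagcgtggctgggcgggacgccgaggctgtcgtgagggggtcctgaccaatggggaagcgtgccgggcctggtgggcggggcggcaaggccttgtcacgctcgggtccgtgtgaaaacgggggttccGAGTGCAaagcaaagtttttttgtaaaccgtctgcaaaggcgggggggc
ATOX1: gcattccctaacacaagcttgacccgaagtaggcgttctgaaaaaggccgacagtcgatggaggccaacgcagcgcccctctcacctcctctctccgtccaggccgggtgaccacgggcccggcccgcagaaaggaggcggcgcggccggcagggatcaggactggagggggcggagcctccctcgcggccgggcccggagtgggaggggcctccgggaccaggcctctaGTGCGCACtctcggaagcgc
MTF1: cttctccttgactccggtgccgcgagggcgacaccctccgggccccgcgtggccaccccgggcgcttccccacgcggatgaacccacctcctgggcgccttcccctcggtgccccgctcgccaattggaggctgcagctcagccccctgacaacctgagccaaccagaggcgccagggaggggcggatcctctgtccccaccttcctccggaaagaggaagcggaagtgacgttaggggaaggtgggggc

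In SLC30A1 the match began 49 bases before the start, and a second match began at position 25 of the transcribed part of the 300-base window (250 bases before to 50 after the start). In ATOX1 the letters read the same on both strands and gave 2 overlapping matches, at positions -20 and -19. Windows were given for 8 of the 10 genes, 12 windows in all, and 5 windows of 4 genes held a match: SLC30A1, ATOX1, start 2 of SLC39A10 (1 match, at position 34), and starts 2 and 3 of ATP7B, whose windows overlap and share 1 of their matches. Of all 35116 windows of this length, 29.6% held at least 1 match and 8.60% at least 2. Of the metallothionein genes 5 had a window, and all 5 held a match, with 8 matches each in MT1H and MT2A and 4 in MT1X. A match is a run of letters, and binding was not measured.

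SLC30A10, a transporter of the same family that exports manganese, on chromosome 1, went the other way with DSF. It read -0.12, -0.52 and -0.55 in Huh1 control, -1.87, -1.76 and -1.74 with DSF, and 0.08, -0.17 and -0.19 with 5-FU. Its Huh7 levels were 0.71, 0.69 and 0.63 in control, 0.30, 0.26 and 0.17 with DSF, and 1.38, 1.68 and 1.56 with 5-FU. DSF arrays were the lowest in both lines, without overlap, and the 5-FU arrays overlapped the controls in Huh1 and lay above them in Huh7. With DSF it fell by 1.39 ± 0.11 in Huh1 (limma adjusted p = 3.37e-07) and by 0.43 ± 0.11 in Huh7 (adjusted p = 0.00602), and the Huh7 call was not made with slide as a block (-0.38, adjusted p = 0.12). The fall was smaller in Huh7, by 0.96 (limma adjusted p of the difference = 3.04e-04). With 5-FU it rose by 0.86 in Huh7 (limma adjusted p = 1.35e-05), while the value of 0.31 in Huh1 (adjusted p = 0.0361) was not called when control replicate 2 or 3 or 5-FU replicate 1 was left out (0.24, 0.23 and 0.22). Untreated Huh7 cells stood above untreated Huh1 cells by 1.08.

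The zinc importers fell with DSF, SLC39A10 in both lines and SLC39A14 in Huh1. SLC39A10 (ZIP10, a plasma membrane zinc importer, on chromosome 2) read -0.69, -0.70 and -0.77 in Huh1 control, -1.26, -1.33 and -1.23 with DSF, and -0.90, -0.74 and -0.84 with 5-FU. In Huh7 it read 0.63, 0.68 and 0.72 in control, -0.26, -0.72 and -0.62 with DSF, and -0.17, -0.22 and 0.01 with 5-FU. All DSF arrays lay below all control arrays of their line, and the 5-FU arrays did so in Huh7 alone. The fall with DSF was by 0.56 ± 0.10 in Huh1 (limma adjusted p = 3.75e-04, and 0.0815 on the spike-in scale) and by 1.21 ± 0.10 in Huh7 (adjusted p = 3.81e-07), larger in Huh7 by 0.66 (limma adjusted p of the difference = 0.00200). On slide 2 alone the Huh7 fall was by 0.94. With 5-FU it fell by 0.81 in Huh7 (limma adjusted p = 7.51e-06, but a positive value of 0.18, adjusted p = 0.351, on the spike-in scale). The 5-FU change in Huh1 was -0.11 (limma adjusted p = 0.392).

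SLC39A14 (ZIP14, a carrier of zinc, iron and manganese that is abundant in liver, on chromosome 8) read 4.51, 4.59 and 4.58 in Huh1 control, 3.65, 3.62 and 3.63 with DSF, and 4.04, 3.80 and 3.77 with 5-FU. The Huh7 arrays gave 5.73, 5.74 and 5.68 in control, 5.83, 5.75 and 5.79 with DSF, and 5.95, 5.89 and 5.79 with 5-FU. In Huh1 both drugs lay wholly below control, and in Huh7 both lay slightly above it. The fall in Huh1 was by 0.93 ± 0.07 with DSF (limma adjusted p = 1.40e-07). With 5-FU it was by 0.69 ± 0.07 (limma adjusted p = 2.26e-06, but a positive value of 0.14, adjusted p = 0.381, on the spike-in scale). In Huh7 the values were 0.07 with DSF (95% interval -0.08 to 0.22) and 0.16 with 5-FU (limma adjusted p = 0.0648). The latter was called in 5 alternatives, at 1.14 (adjusted p = 1.98e-06) on the spike-in scale, 0.50 (2.67e-05) with quantile normalization, 0.19 (0.0261) with normexp background correction, 0.16 (0.0375) with an intensity trend and 0.20 (0.0368) without 5-FU replicate 3. The lines differed in the DSF effect by 1.00 (limma adjusted p = 3.38e-06) and in the 5-FU effect by 0.85 (adjusted p = 1.55e-05). The second probe gave -0.83 and -0.50 in Huh1 and 0.20 and 0.08 in Huh7, with no call in Huh7. Untreated Huh7 cells exceeded Huh1 cells by 1.16 on the first probe and by 1.42 on the second.

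MTF1, the zinc sensing transcription factor, on chromosome 1, moved in opposite directions with the drugs. It read 0.63, 0.63 and 0.68 in Huh1 control, 1.01, 0.98 and 1.00 with DSF, and 0.08, 0.50 and 0.51 with 5-FU. Its Huh7 levels were -0.40, -0.36 and -0.46 in control, 0.14, -0.01 and 0.01 with DSF, and -0.79, -0.59 and -0.68 with 5-FU. In each line DSF was the highest group and 5-FU the lowest, without overlap, and the first 5-FU array of Huh1 stood well below the other Huh1 arrays. With DSF the rise was 0.35 ± 0.10 for Huh1 (limma adjusted p = 0.00886) and 0.46 ± 0.10 for Huh7 (adjusted p = 0.00162), and neither call was made under every scaling (0.18, adjusted p = 0.205, in Huh1 with median scaling, and 0.28, adjusted p = 0.166, in Huh7 on the spike-in scale). With 5-FU it fell by 0.28 in each line (limma adjusted p = 0.0265 and 0.0253), but the Huh1 call was lost without control replicate 2 or 3 or 5-FU replicate 1 (-0.29, -0.27 and -0.14), the Huh7 call without control replicate 1 or 2 or 5-FU replicate 1 or 3 (-0.28, -0.25, -0.23 and -0.28), and the spike-in scale gave 0.54 and 0.71 in place of these falls. The DSF group stood above the 5-FU group by 0.64 in Huh1 and 0.73 in Huh7, with -0.06 and -0.43 on the spike-in scale.

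The copper importers differed by line in their 5-FU effects, and SLC31A1 also in its DSF effect. SLC31A1 (CTR1, the high affinity copper importer, on chromosome 9) read 1.25, 1.53 and 1.50 in Huh1 control, 1.41, 1.41 and 1.54 with DSF, and 1.64, 1.66 and 1.59 with 5-FU. In Huh7 it read 1.50, 1.50 and 1.47 in control, 0.74, 0.74 and 0.71 with DSF, and 1.08, 0.89 and 0.86 with 5-FU. The DSF and control arrays of Huh1 overlapped, and in Huh7 DSF was lowest, 5-FU next and control highest, without overlap. In Huh7 it fell by 0.76 ± 0.08 with DSF (limma adjusted p = 3.05e-06). With 5-FU it fell there by 0.55 ± 0.08 (limma adjusted p = 2.90e-05, but a rise of 0.44 on the spike-in scale). In Huh1 the DSF change was 0.03 (95% interval -0.14 to 0.19), and the value of 0.20 with 5-FU (limma adjusted p = 0.0431) was not called in 10 of 19 alternatives, among them the fits without control replicate 1 and without each 5-FU array in turn (0.11 to 0.22). The lines differed by -0.78 in the DSF effect (limma adjusted p = 7.76e-05) and by -0.75 in the 5-FU effect (adjusted p = 1.18e-04, and 0.0661 on the spike-in scale). The second probe fell by 0.56 with DSF and by 0.49 with 5-FU in Huh7, and was not called in Huh1 (0.16 and 0.09).

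SLC31A2 (CTR2, a relative of CTR1 found on internal membranes, on chromosome 9) read 0.66, 0.85 and 0.85 in Huh1 control, 1.30, 1.25 and 1.17 with DSF, and 0.49, 0.76 and 0.80 with 5-FU. The Huh7 arrays gave -0.48, -0.45 and -0.51 in control, -0.11, -0.36 and -0.33 with DSF, and 0.15, 0.42 and 0.35 with 5-FU. DSF was the highest group in Huh1 and 5-FU the highest in Huh7, both without overlap with control. It rose with DSF by 0.45 ± 0.10 in Huh1 (limma adjusted p = 0.00178; 0.28, adjusted p = 0.0725, with median scaling) and with 5-FU by 0.79 ± 0.10 in Huh7 (adjusted p = 8.84e-06). The other changes were 0.21 with DSF in Huh7 (limma adjusted p = 0.0918) and -0.10 with 5-FU in Huh1 (adjusted p = 0.424; 0.72 on the spike-in scale). The 5-FU effect was larger in Huh7 by 0.89 (limma adjusted p of the difference = 2.08e-04). The DSF effects of SLC31A2 in the lines were not called different (-0.24, limma adjusted p = 0.185).

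ATOX1, the copper chaperone that hands copper to ATP7A and ATP7B, on chromosome 5, read 4.58, 4.87 and 4.72 in Huh1 control, 3.98, 3.94 and 4.07 with DSF, and 4.62, 4.21 and 4.24 with 5-FU. Its Huh7 levels were 4.10, 4.06 and 4.14 in control, 3.78, 3.44 and 3.52 with DSF, and 3.57, 3.85 and 3.86 with 5-FU. DSF arrays lay wholly below control arrays in both lines. It fell with DSF by 0.73 ± 0.12 in Huh1 (limma adjusted p = 2.31e-04) and by 0.52 ± 0.12 in Huh7 (adjusted p = 0.00325), with -0.32 in Huh7 when slide was a block (adjusted p = 0.179). The falls with 5-FU were by 0.37 in Huh1 (limma adjusted p = 0.0235, groups overlapping) and by 0.34 in Huh7 (adjusted p = 0.0275). The Huh1 call was lost without control replicate 2 or 3 or 5-FU replicate 2 or 3, and the Huh7 call without control replicate 1 or 3 or 5-FU replicate 1. On the spike-in scale the sign differed, with rises of 0.46 in Huh1 and 0.65 in Huh7 in place of these falls.

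The copper ATPases stood in opposite order in the lines. ATP7B, the ATPase that loads ceruloplasmin and sends copper into bile and is mutated in Wilson disease, on chromosome 13, read 1.48, 1.54 and 1.56 in Huh1 control, 0.32, 0.31 and 0.41 with DSF, and 1.14, 0.74 and 0.69 with 5-FU. In Huh7 it read 2.73, 2.80 and 2.77 in control, 2.50, 2.27 and 2.34 with DSF, and 3.29, 3.12 and 3.27 with 5-FU. Every Huh7 array lay above every Huh1 array, DSF was the lowest group in each line, and 5-FU lay below control in Huh1 and above it in Huh7. It fell with DSF by 1.18 ± 0.10 in Huh1, a 2.27-fold decrease (limma adjusted p = 5.57e-07), and by 0.40 ± 0.10 in Huh7 (adjusted p = 0.00534; -0.27, adjusted p = 0.189, with slide as a block). The DSF effect differed by 0.78 between the lines (limma adjusted p = 6.38e-04; 0.48, adjusted p = 0.153, on the spike-in scale). With 5-FU it fell by 0.67 in Huh1 (limma adjusted p = 8.71e-05, but a positive value of 0.16 on the spike-in scale). In Huh7 it rose with 5-FU by 0.46 (limma adjusted p = 0.00127). The 5-FU effects differed by 1.13 (limma adjusted p = 3.56e-05), a difference called under every alternative run (1.04 to 1.29). Untreated Huh7 cells exceeded Huh1 cells by 1.24 ± 0.10 (limma adjusted p = 3.83e-08).

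ATP7A, the ATPase that exports copper in most other tissues and is mutated in Menkes disease, on chromosome X, read -0.58, -0.82 and -0.09 in Huh1 control, 0.15, 0.06 and -0.22 with DSF, and -0.51, -0.20 and -0.13 with 5-FU. The Huh7 arrays gave -2.36, -2.22 and -2.10 in control, -2.11, -2.12 and -2.08 with DSF, and -2.84, -2.29 and -2.49 with 5-FU. Every Huh1 array lay above every Huh7 array, and treated and control arrays overlapped in each line. Untreated Huh7 cells were lower by 1.73 ± 0.18 (limma adjusted p = 5.12e-07), a 3.31-fold difference, and the other 3 probes were lower by 2.04, 1.82 and 0.67, all called. The DSF change in Huh1 was 0.50 ± 0.18 (limma adjusted p = 0.0346) and was not called in 10 of 19 alternatives, among them the fits without control replicate 1 or 2 or DSF replicate 1 or 2 (0.34 to 0.46), but each of the other 3 probes was called too, at 0.46, 0.58 and 0.43. In Huh7 the DSF change was 0.12 (95% interval -0.26 to 0.50), with 1 of the other 3 probes called, at 0.43. With 5-FU the probes disagreed: in Huh1 2 of the 4 were called, at 0.75 and 0.76, beside 0.22 and 0.16 for the others, and in Huh7 2 were called lower, at -0.51 and -0.45, beside -0.32 and -0.11. The 2 probes called with 5-FU in Huh1 and the 2 called in Huh7 had 1 probe in common.

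**Figure D2:**
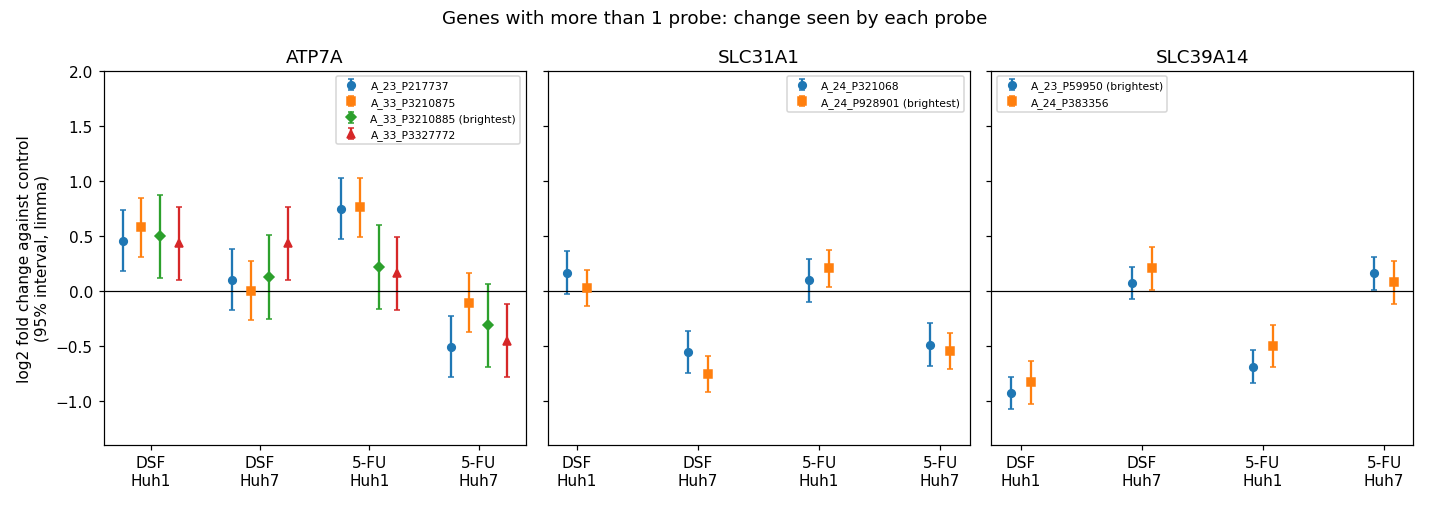
Change of every probe of ATP7A (4 probes), SLC31A1 (2) and SLC39A14 (2) against control, as log2 fold change with its 95% interval from limma, for each drug and line. All 4 ATP7A probes lie above 0 with DSF in Huh1 (0.43 to 0.58), and both probes of SLC31A1 and of SLC39A14 lie on the same side of 0 wherever either was called.

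**Figure D3:**
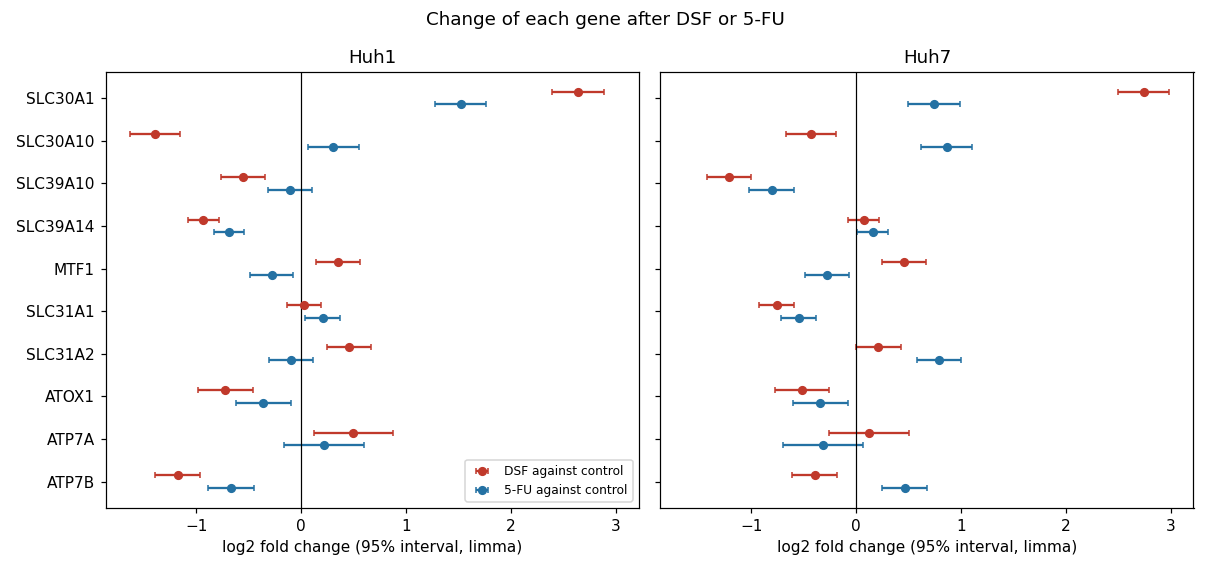
Change of each of the 10 genes (brightest probe) after DSF in red and 5-FU in blue, with Huh1 on the left and Huh7 on the right, as log2 fold change against control with its 95% interval from limma. SLC30A1 stands furthest to the right with DSF in both lines, and SLC39A14 and SLC31A1 each have a DSF interval that includes 0 in 1 line and lies wholly below 0 in the other.

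Before treatment the lines already differed in 8 of the 10 genes, 4 higher and 4 lower in Huh7, where 70.7% of all tested probes were called (34.5% higher, 36.2% lower). Of the 22427 probes well above background on all arrays, 16364 were called. As means of their tested probes, 12495 of 15849 genes were called. SLC39A10 (1.40), ATP7B (1.24), SLC39A14 (1.16) and SLC30A10 (1.08) were higher in Huh7. ATP7A (-1.73), SLC31A2 (-1.27), MTF1 (-1.06) and ATOX1 (-0.63) were lower. SLC30A1 (-0.16, limma adjusted p = 0.239) and SLC31A1 (0.06, adjusted p = 0.493) were not called. The DSF effects differed between the lines for 5 of the 10 genes, beside 40.3% of all tested probes, and the 5-FU effects for 7, beside 36.6%. As means of their tested probes, 7649 of 15849 genes were called for DSF and 7328 for 5-FU. All Huh1 control arrays were on slide 1 and all Huh7 control arrays on slide 2. With slide as a block the 8 calls between untreated lines were all made. In that fit only Huh1 DSF replicate 3 links slide 1 to slide 2, so it can hardly part line from slide.

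The order of the 6 groups for SLC30A1 ran from Huh7 control (1.11 ± 0.04 SD) and Huh1 control (1.27 ± 0.02), which limma did not call different, through Huh7 5-FU (1.85 ± 0.33) and Huh1 5-FU (2.79 ± 0.05), to Huh7 DSF (3.85 ± 0.06) and Huh1 DSF (3.90 ± 0.04, n = 3 arrays each). For ATP7B the order was Huh1 DSF (0.35 ± 0.05 SD), Huh1 5-FU (0.86 ± 0.25), Huh1 control (1.53 ± 0.04), Huh7 DSF (2.37 ± 0.12), Huh7 control (2.77 ± 0.03) and Huh7 5-FU (3.23 ± 0.09). No neighbors in the ATP7B order shared values. Across the 18 arrays, and over 15848 other named genes, the genes whose levels ran most like those of ATP7B included KLB (Pearson r = 0.994), SEPTIN11 (0.988), CPT2 (0.987) and ZBED1 (0.986). Those most like SLC30A10 were APOA1 (0.988), SULT2A1 (0.982), JAGN1 (0.980), ABHD15 (0.975) and TBC1D2B (0.974), of which APOA1 encodes the main protein of high density lipoprotein. Those most like SLC30A1 were SLAMF7 (0.972), RFPL4A (0.954), KRT17 (0.950), DEFB103B (0.945) and SPRR2A (0.939), which reached down to levels between -8.61 and -8.00 on the dimmest arrays and were well above background on 8 to 15 of the 18 arrays, so part of their likeness rests on levels near background. These likenesses describe 18 arrays that share 2 lines and 3 treatments.

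Among the other zinc exporters of the SLC30 family, 7 of 8 listed genes were tested. With DSF 1 rose and 3 fell in Huh1, and 2 rose and 3 fell in Huh7, that is 4 and 5 of 7, beside 44.2% and 46.7% of all tested probes called. SLC30A2, which loads zinc into vesicles, was not well above background on any control array and was measured on all DSF arrays (-4.91 in Huh1 and -0.53 in Huh7), at least 2.58-fold higher in Huh1 and at least 55.2-fold higher in Huh7 (limma adjusted p = 1.63e-05 and 4.13e-11), bounds that hold for this background correction only (changes of 0.37 and 3.38 under normexp). SLC30A3, a vesicular zinc transporter, fell by 1.14 and 0.93, and SLC30A5, which supplies zinc to the secretory pathway, fell by 0.26 and 0.44 in Huh1 and Huh7 (0.01 in Huh1 as the mean of its probes). The median change of the family was -0.23 in Huh1 and -0.16 in Huh7 with DSF, and -0.11 in both with 5-FU. With 5-FU 3 fell in Huh1, and 2 were called higher and 3 fell in Huh7, beside 48.2% and 57.1% of all tested probes. SLC30A4 was also called higher in Huh1, but it was not well above background on any Huh1 array, and SLC30A2, 1 of the 2 called higher in Huh7, gave -0.11 under normexp. The falls in both lines were those of SLC30A5 (-0.55 and -0.33), SLC30A7 (-0.44 and -0.41) and SLC30A9 (-0.63 and -0.50), and all of them had the opposite sign on the spike-in scale, where 4 of the 6 genes measured in Huh1 and all 7 in Huh7 were called higher and 0 lower, beside 74.7% and 76.8% of all tested probes higher.

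Of the other SLC39 importers 11 of 12 were tested. With DSF 2 rose and 1 fell in Huh1, and 2 rose and 3 fell in Huh7, with SLC39A6 higher in both lines (1.09 and 0.29) and SLC39A5 lower in both (-1.06 and -1.11). These 3 and 5 of 11 stood beside 44.2% and 46.7% of all tested probes called. With slide as a block 0 rose and 2 fell in Huh7, where 8548 of the 29894 tested probes were called. With median scaling 1 rose and 4 fell in Huh1, where 14385 tested probes were called, 4750 of them higher. The median change of these importers was -0.04 in Huh1 and -0.17 in Huh7 with DSF, and -0.08 and 0.11 with 5-FU. With 5-FU the calls were 4 up and 3 down for Huh1 and 4 each way for Huh7, beside 48.2% and 57.1% of all tested probes. SLC39A1 (0.61 and 0.49) and SLC39A6 (0.66 and 0.43) rose in both lines on either scale, and SLC39A11 fell in both lines on either scale, by 1.55 and 1.41 on the 75th percentile scale and by 0.72 and 0.42 on the spike-in scale. SLC39A13 (-0.31 and -1.15) kept its sign on the spike-in scale in Huh7 alone. SLC39A2 was called higher with 5-FU in both lines and with DSF in Huh7, but it was not well above background on any control array and was above it on 1 of 3 Huh1 5-FU arrays, and under normexp background correction it gave -0.06 with 5-FU in both lines and 0.24 (limma adjusted p = 0.139) with DSF in Huh7, so no fold is given. On the spike-in scale 9 importers in Huh1 and 8 in Huh7 were called higher with 5-FU, SLC39A2 included, and 1 lower in each, beside the same 74.7% and 76.8% of all tested probes higher.

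Of 20 other genes of copper handling 19 were tested. With DSF 3 rose and 12 fell in Huh1, beside 23.9% of all tested probes called higher and 20.3% lower, and 5 rose and 5 fell in Huh7, beside 27.3% and 19.4%. COMMD1, which takes part in copper export with ATP7B, rose by 0.71 and 0.33. CP, the copper carrying plasma protein ceruloplasmin, fell by 0.42 and 1.26, and LIAS, which makes lipoic acid, fell by 0.62 and 0.39. The median change of the group was -0.28 in Huh1 and -0.10 in Huh7 with DSF, and -0.26 and -0.13 with 5-FU. On the spike-in scale the counts with DSF were 3 higher and 2 lower in Huh1 (23.7% and 8.09% of all tested probes) and 0 higher, 4 lower in Huh7 (10.8% and 20.5%). With 5-FU 3 rose and 10 fell in Huh1, beside 22.2% of all tested probes higher and 26.0% lower, and 6 rose and 8 fell in Huh7, beside 27.3% and 29.7%. COX19 (0.90 and 0.48), FDX1 (0.20 and 0.54) and SCO2 (0.39 and 0.25) rose in both lines on either scale. LIAS (-0.69 and -1.27), CUTC (-0.64 and -0.95), SLC25A3, the mitochondrial carrier of phosphate and copper (-0.67 and -0.66), STEAP3 (-0.69 and -0.62), SOD1 (-0.46 and -0.48) and MEMO1 (-0.42 and -0.37) fell in both lines, and on the spike-in scale all of these were above 0 except LIAS in Huh7 (-0.28), with 14 genes of the group in Huh1 and 15 in Huh7 called higher there and 0 lower, beside 74.7% and 76.8% of all tested probes called higher.

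The metallothioneins, small proteins that bind zinc and copper and are targets of MTF1, had 11 of 13 listed genes tested. With DSF 10 rose and 0 fell in Huh1, and 11 rose and 0 fell in Huh7, with a median change of 7.74 and 8.60, beside 23.9% and 27.3% of all tested probes called higher. MT1F in Huh1 and MT1M and MT1G in Huh7 were not well above background on any control array. With their control levels raised to at least that of the dimmest well above background probe of the array, the medians were the same. MT2A rose by 6.79 in Huh1 and 8.55 in Huh7, and MT1X by 7.56 and 8.60. Those genes were not well above background with 5-FU in the same lines either, which left 10 measured genes in Huh1 and 9 in Huh7. Of these 9 fell in Huh1 and 8 in Huh7 with 5-FU and 0 rose, with medians of -0.79 and -0.86, beside 26.0% and 29.7% of all tested probes called lower. On the spike-in scale 1 of them in Huh1 and 2 in Huh7 were called higher and 0 lower. Beside these, 74.7% and 76.8% of all tested probes were called higher and 1.23% and 3.46% lower. The genes of this family are close in sequence, and a probe may bind RNA of more than 1 of them. SLC30A1 and the metallothioneins rose together with DSF, while with 5-FU SLC30A1 rose and the changes of the measured metallothioneins ran from -1.35 to 0.05 in Huh1 and from -1.46 to 0.16 in Huh7.

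**Figure D4:**
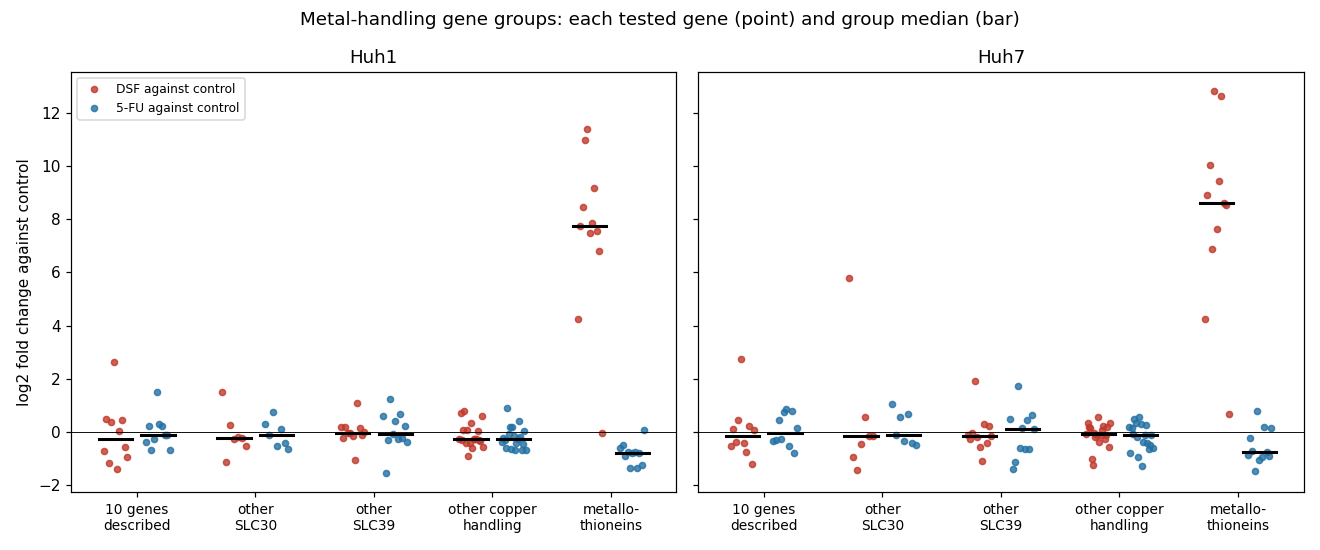
Change against control, as log2 fold change, of every tested gene in the set of 10 and in 4 further groups (7 other SLC30 genes, 11 other SLC39 genes, 19 other copper handling genes and 11 metallothioneins), with DSF in red and 5-FU in blue, Huh1 on the left and Huh7 on the right. Bars are group medians over all tested genes, those not well above background included, and with DSF the metallothioneins lie at medians of 7.74 and 8.60 while the medians of the other groups lie between -0.28 and -0.04.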

How the data were processed

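The authors deposited Agilent Feature Extraction output for each array, in which the processed spot intensity is linear, background-subtracted and not scaled between arrays; the labels name version 10.7.1.1. The deposited value table of the series holds normalized signal per probe, in which 100% of the probes of each array lay within 0.05 log2 of a constant from the spot files. Array designs were annotated on hg19, names were updated through the RefSeq table of GRCh38.p14, and no array coordinates were used.

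Here unflagged spots of a probe were averaged as log2 intensity, and the array's log2 75th percentile (10.0982 to 10.8389) was subtracted. Of 42405 probes 78 had an array with no unflagged spot and were left out. Probes entered the test if some group had them well above background on each of its 3 arrays (29894 probes; 25341 to 30094 well above background per array, no spot saturated). All 18 arrays entered 1 limma fit with 6 groups and 12 residual degrees of freedom, with 9 contrasts; the number of arrays limits the precision, and p-values measure the spread between the 3 arrays of a group. For the arrays the study's methods give rules that combine fold-change and p-value cutoffs, without naming the test. Their general statistics name a Mann-Whitney U test between groups, whose smallest exact p for 3 against 3 is 0.1. Replicates were grouped by their labels, and no pair of arrays held identical values. The fit was tested on simulated data. Alternatives were normexp background correction (offset 50, on the median signals that the files hold), quantile, median and spike-in scaling, the deposited value table, other filters, an intensity trend, 1 line alone, the replicate number or slide as a block, the mean of probes, and leaving out each array.

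All 10 genes are named; genes of the other lists are named when called in the same direction in both lines with the same drug, metallothioneins by 2 examples and those with most motif matches. The genes, lists and tests were chosen with earlier results of these data known. Sequences are from RefSeq (GRCh38.p14). Computations used R 4.3.3, limma 3.58.1, and Python 3.11.15 with numpy 2.4.6, pandas 2.3.3 and matplotlib 3.10.9. Some genes that these rules would name are not reported here.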

Additional observations from a re-analysis of the deposited data

Results flagged for a closer look

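A test of the difference between the lines called 12 drug effects, 5 with DSF and 7 with 5-FU, beside 40.3% and 36.6% of all tested probes. Taken as Huh7 minus Huh1, the difference of effects (log2, limma adjusted p under the threshold) was, with DSF, 0.96 for SLC30A10, -0.66 for SLC39A10, 1.00 for SLC39A14, 0.78 for ATP7B and -0.78 for SLC31A1. With 5-FU it was -0.78 for SLC30A1, 0.55 for SLC30A10, -0.70 for SLC39A10, 0.85 for SLC39A14, 1.13 for ATP7B, -0.75 for SLC31A1 and 0.89 for SLC31A2. On the spike-in scale the DSF difference of ATP7B and the 5-FU differences of SLC30A1, SLC39A10 and SLC31A1 were no longer called. The other 8 were called under every alternative run, and all 12 were called with slide as a block.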

How the results depend on the processing

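Counts of the 10 genes called moved by over 1.5 times in these cases and no others. With slide as a block and within a slide, DSF against control in Huh7 gave 4 in place of 7, and DSF against 5-FU in Huh7 gave 5 in place of 8. Of all 29894 tested probes the former comparison called 8548 and 6739 in place of 13975. The latter called 13218 and 11966 in place of 18096. For 5-FU against control in Huh1 the count was 4 in place of 7 in the fit of Huh1 alone and 3 within the slide, and with 1 array left out it ran from 4 (without control replicate 2, control replicate 3 or 5-FU replicate 1) to 6. Of all tested probes 14569 were called in the fit of Huh1 alone and 13972 within the slide, in place of 14403. Without the named arrays in turn 13024, 13081 and 14718 were called. On the spike-in scale the difference between the lines in the 5-FU effect gave 4 in place of 7, beside 6886 in place of 10935 of all tested probes. Of the 67 called changes 12 took the opposite sign under some alternative, in each case the spike-in scale.
On that scale the changes of opposite sign were, for 5-FU in Huh1, ATOX1 0.46, ATP7B 0.16, MTF1 0.54, SLC31A2 0.72, SLC39A10 0.72 and SLC39A14 0.14, and for 5-FU in Huh7, ATOX1 0.65, ATP7A 0.67, MTF1 0.71, SLC31A1 0.44 and SLC39A10 0.18. For DSF in Huh7 they were SLC39A14 -0.10 and ATP7A -0.051. For DSF against 5-FU they were ATP7A -0.42, MTF1 -0.056 and SLC31A2 -0.14 in Huh1, and ATP7A -0.72 and MTF1 -0.43 in Huh7. For the difference between the lines in the DSF effect they were ATOX1 -0.10, MTF1 -0.20 and SLC30A1 -0.21.
Other changes of opposite sign were uncalled and near 0. For SLC31A1 with DSF in Huh1 they were -0.15 with median scaling and -0.018 with slide as a block and within the slide, and with 1 array left out they ran from -0.066 (without control replicate 1) to 0.077. For SLC31A1 between the untreated lines they were -0.10 with median scaling, -0.065 with slide as a block and -0.017 with the mean of probes, and from -0.029 (without Huh1 control replicate 1) to 0.114 with 1 array left out. SLC39A14 gave -0.023 with quantile normalization (DSF, Huh7) and 0.020 with the mean of probes (DSF against 5-FU, Huh7), and ATOX1 0.024 in the latter comparison with slide as a block and within the slide. The line difference in the 5-FU effect was -0.076 for ATOX1 and -0.012 for MTF1 with quantile normalization, and with 1 array left out it ran from -0.050 to 0.156 for ATOX1 and from -0.136 to 0.082 for MTF1. The cause of these moves was not tested.
Same-numbered arrays of 2 groups of a line did not deviate together (correlations of -0.093 to 0.024 over 18 pairs). Whether a number marks the same experiment in different groups cannot be told from these correlations. With the replicate number as a block, the changes of ATP7A with DSF in Huh1 (0.50, limma adjusted p = 0.0547), ATOX1 with 5-FU in Huh1 (-0.37, 0.0609) and Huh7 (-0.34, 0.0669), SLC31A1 with 5-FU in Huh1 (0.20, 0.0583), ATOX1 in DSF against 5-FU in Huh1 (-0.36, 0.062) and ATP7A in DSF against 5-FU in Huh7 (0.44, 0.0642) were not called, and no other call among these genes changed. The block lies within a line and was not fitted to the comparison of untreated lines.
Over all 90 changes, 1611 of 1760 values under an alternative kept their direction and their side of the threshold. All member probes were well above background, while SLC30A2, SLC30A4, SLC39A2, MT1F, MT1M, MT1G and the genes most like SLC30A1 were not well above background in some groups, which limits what their values show. Changes after 5-FU depend on the scale.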
